A study of Mus musculus with 30 samples.

Results

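The genes described here are 10 type I interferon-stimulated genes, Ifit1, Ifit2, Ifit3, Isg15, Oasl2, Rsad2, Mx1, Usp18, Ifi44 and Bst2. They were taken by symbol as protein-coding rows of the deposited annotation, and all 10 were present among the 30952 genes of the table. Their levels were compared in microglia and in astrocytes of mice with experimental autoimmune encephalomyelitis (EAE), an autoimmune inflammation of the spinal cord and brain that serves as a model of multiple sclerosis. The study asked which transcripts of these cells depend on the kinase RIPK1 during the disease. Spinal cords came from female C57BL/6 mice in 3 groups: 4 naive mice, labelled only as such, 6 EAE-vehicle mice and 5 EAE-RIPK1inh mice, and 15 libraries were made from microglia and 15 from astrocytes. Both EAE groups were immunized at 8 to 10 weeks of age with a peptide of myelin oligodendrocyte glycoprotein in complete Freund's adjuvant, with pertussis toxin. From a clinical score of about 1 they were gavaged BID for 3 days, the EAE-vehicle mice with 20% Captisol and the EAE-RIPK1inh mice with the RIPK1 inhibitor GSK'547 (RIPK1inh-1 in the study) at 50 mg/kg. The naive mice therefore differ from the EAE-vehicle mice in immunization, adjuvant, toxin and gavage at once, and these cannot be told apart.

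Type I interferons (interferon alpha and beta) bind a receptor made of IFNAR1 and IFNAR2, whose kinases JAK1 and TYK2 activate the factor ISGF3. This factor, which contains STAT2 and IRF9, binds interferon-stimulated response elements (ISREs) before interferon-stimulated genes. Interferon gamma, a product of T cells and natural killer cells, acts through another receptor and raises many of the same genes. None of the genes described here therefore marks a single interferon. In the central nervous system both microglia, the resident macrophages, and astrocytes respond to interferons, and interferon beta is a treatment of multiple sclerosis.

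The members fall into a few roles. Ifit1, Ifit2 and Ifit3 encode related proteins that bind foreign RNA and restrain its translation, and they are neighbours on chromosome 19 (GRCm38), at 34640871 to 34650009, 34550694 to 34576419 and 34583531 to 34588731, all on the plus strand. Isg15 (chromosome 4, 156199424 to 156200818, minus strand) encodes a ubiquitin-like modifier that is attached to other proteins. Usp18 (chromosome 6, 121245906 to 121270917, plus strand) encodes the protease that removes it and that also restrains the type I receptor. Oasl2 (chromosome 5, 114896936 to 114912234, plus strand) belongs to the family of oligoadenylate synthetases, and Rsad2 (chromosome 12, 26442746 to 26456452, minus strand) encodes viperin, an antiviral enzyme of the radical SAM family. Mx1 (chromosome 16, 97447035 to 97462907, minus strand) encodes an antiviral GTPase, of which C57BL/6 mice carry a defective allele. Bst2 (chromosome 8, 71534255 to 71537456, minus strand) encodes tetherin, which holds budding virus at the cell surface. Ifi44 lies on chromosome 3 at 151730922 to 151749960, on the minus strand. The deposited annotation marks 1 member, Usp18, as confounded with another gene, and Ifit3 has a close copy, Ifit3b, with which reads could be shared.

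Promoter sequence was available for 8 members in the RefSeq table of GRCm38.p6, as windows of 250 bases before to 50 bases after a start site. The core of the ISRE was searched as GAAANNGAA on both strands, where it reads TTCNNTTTC on the other. It was present in 6 of the 8 windows, against 8.55% of all 32817 windows, and occurred at least 2 times in 4 of them, against 0.619% of all. The following stretches, 5′ to 3′ on the strand of the gene, are the 5 with a match before the start site. They are shown because they hold letters that match the core of the element that ISGF3 binds. Capitals mark the letters that match the ISRE core, and matches may overlap.
Ifit1, chr19:34640760-34640833: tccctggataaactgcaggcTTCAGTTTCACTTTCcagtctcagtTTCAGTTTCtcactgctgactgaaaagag
Ifit3, chr19:34583354-34583455: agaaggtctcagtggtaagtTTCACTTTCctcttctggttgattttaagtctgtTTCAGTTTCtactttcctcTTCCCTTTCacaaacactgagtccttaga
Isg15, chr4:156200856-156200916: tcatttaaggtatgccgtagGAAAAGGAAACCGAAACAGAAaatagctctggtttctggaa
Rsad2, chr12:26456543-26456591: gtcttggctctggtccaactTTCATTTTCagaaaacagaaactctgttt
Bst2, chr8:71537568-71537622: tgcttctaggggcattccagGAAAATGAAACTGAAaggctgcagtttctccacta

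In Isg15 the match nearest to the start site began 66 bases before it, in Ifit1 84 bases, in Ifit3 102 bases, in Rsad2 119 bases and in Bst2 124 bases. Ifit1, Ifit3 and Isg15 each held 3 matches, Bst2 held 2 and Rsad2 1. The match of Ifi44 lay across the start site, and the windows of Ifit2 and Oasl2 held none. For Ifit2, 2 windows were listed, and only the one nearest the deposited gene start was used. The core of the interferon gamma-activated site, searched as TTCNNNGAA, was present in 2 of the 8 windows (Ifit2 and Bst2), against 8.29% of all windows, and in Bst2 it overlapped an ISRE match. These matches are descriptions of letters and no binding was measured. No window was used for Mx1 and Usp18.

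The values are log2 FPKM, fragment counts scaled to exon length and library total, which the authors quantile-normalized over all 30 libraries. They are scaled to exon length, so levels of different genes can be set side by side. The depth of the libraries is unknown, and the number of genes with signal, 6728 to 22981 per library, stands in for it here. A gene without signal in a library holds a low value set by the normalization and not by reads. Naive microglia replicate 4, naive astrocyte replicate 2, EAE-vehicle astrocyte replicate 1 and EAE-RIPK1inh astrocyte replicate 5 had fewer than 10000 genes with signal. By their means, microglial and astrocyte markers were higher in the cells sorted for them. The 10 microglial markers averaged 8.14 to 10.54 log2 units in microglia and 0.911 to 3.97 in astrocytes. The 8 astrocyte markers averaged 7.85 to 9.39 in astrocytes and 0.990 to 2.12 in microglia. Astrocyte libraries also held oligodendrocyte markers at means of 6.19 to 9.91 and neuron markers at 3.52 to 5.43. In microglia these were at 1.72 to 2.95 and 0.0557 to 0.758. Endothelial markers averaged 4.08 in naive astrocyte replicate 4 and at most 1.33 in the other astrocyte libraries.

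In microglia, 9 of the 10 members rose in EAE and the remaining one, Mx1, was called only without adjustment. Differences between EAE-vehicle and naive microglia were 1.04 to 4.30 log2 units, with a median of 3.23, where the median over all 28958 genes tested was -0.02. A gene is written as risen here where limma's Benjamini-Hochberg adjusted p over all genes tested was under 0.05, and as called where it passed the study's own cutoff, a fold change over 1.5 with an unadjusted p under 0.05. All 10 members were called, against 6.13% of genes tested that were called higher. An adjusted p under 0.05 was reached by 9 members, against 2.37% of genes tested. In 9 members every EAE-vehicle library lay above every naive library, as it did in 2.93% of genes tested. The members were chosen with earlier results of these data known, so such shares, here and below, are descriptions and no test. In RNA of sorted cells, a larger share of responding cells and more RNA per cell cannot be told apart.

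**Figure D1:**
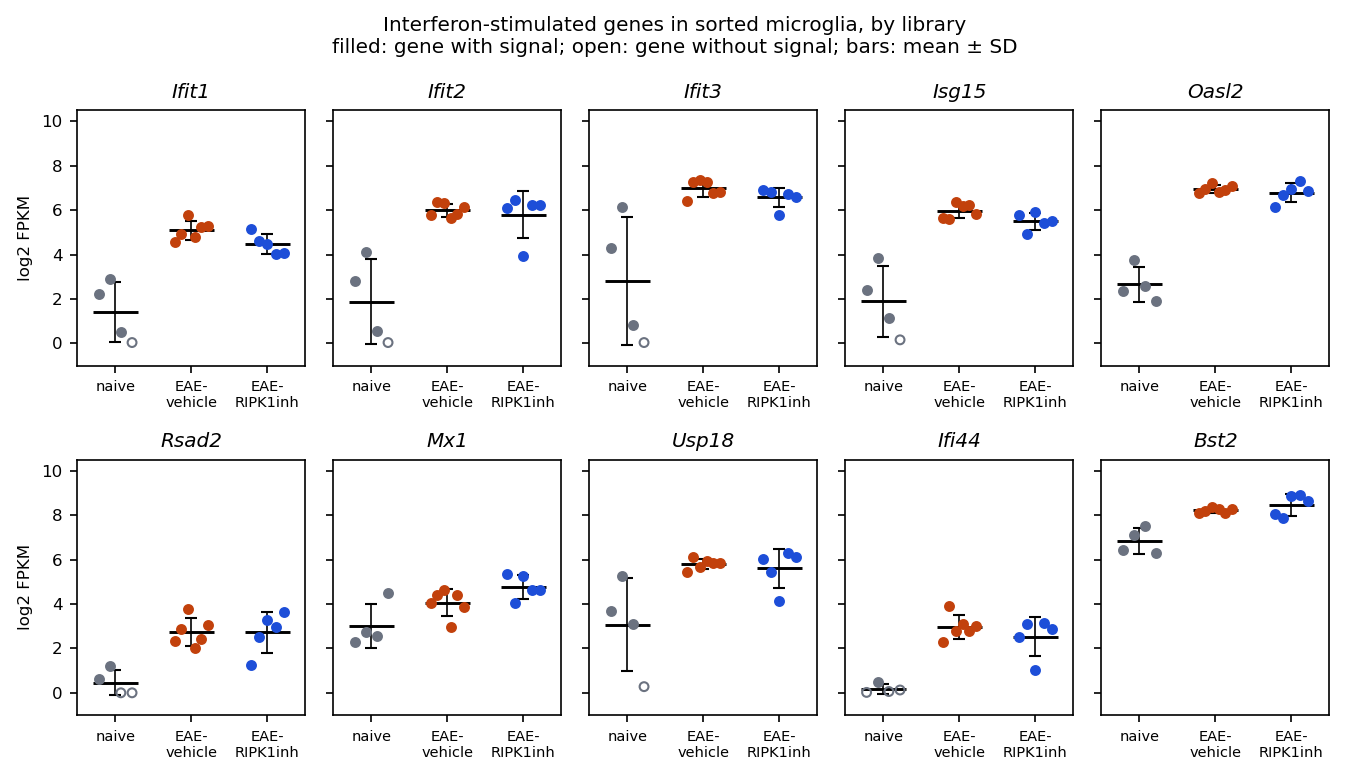
Levels of the 10 members in microglia, in log2 FPKM, for 4 naive, 6 EAE-vehicle and 5 EAE-RIPK1inh libraries, with 1 point per library, open points for genes without signal, and bars for mean ± SD. Both EAE groups sit above the naive libraries for most members, and the naive libraries spread more than the EAE libraries.

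Oasl2 showed the largest difference. Its level was 2.37, 3.75, 2.59 and 1.93 log2 units in the 4 naive libraries, and ran from 6.78 over a median of 6.93 to 7.21 in EAE-vehicle microglia. The groups were more than 3 log2 units apart at their nearest, and the difference was 4.30 ± 0.30 (SE; 19.7-fold; adjusted p = 1.18e-06, limma). Isg15 was at 2.41, 3.87, 1.16 and 0.16 in naive microglia, the last of these without signal, and at 5.62 to 6.38 with a median of 6.02 in EAE-vehicle microglia. Its difference was 4.08 ± 0.53 (SE; 16.9-fold; adjusted p = 0.000318, limma). Both genes were at similar heights in all 6 diseased mice, while the naive mice differed among themselves by more than the whole EAE-vehicle range.

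The RNA-binding Ifit genes had their highest naive level in replicate 2 and their lowest in replicate 4. Ifit1 was at 2.22, 2.92, 0.52 and 0.04 in naive microglia, the last without signal, and at 4.56 to 5.77 with a median of 5.08 in EAE-vehicle microglia, a difference of 3.67 ± 0.49 (SE; adjusted p = 0.000396, limma). Ifit2 differed by 4.12 ± 0.70 (SE; adjusted p = 0.0027, limma). Ifit3 was the most variable member in naive microglia, at 4.30, 6.15, 0.81 and 0.04, so that its highest naive library came within 0.3 of the lowest EAE-vehicle library, at 6.41. Its difference of 4.15 ± 0.89 (SE; adjusted p = 0.0148, limma) had an adjusted p of at most 0.0527 when single libraries were left out, the highest being without naive replicate 3, and of 0.0607 with the 2 groups alone in the fit.

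Bst2 was already high in naive microglia, at 6.43, 7.12, 7.51 and 6.27, and was the most abundant member there on this per-length scale. In EAE-vehicle microglia it was at 8.08 to 8.36 with a median of 8.24, and the difference was 1.39 ± 0.26 (SE; 2.61-fold; adjusted p = 0.00601, limma). At the other end, Ifi44 and Rsad2 were nearly silent in naive microglia, Ifi44 with signal in 1 and Rsad2 in 2 of 4 libraries, and they reached 2.27 to 3.91 and 2.00 to 3.77 in EAE-vehicle microglia. Their differences were 2.80 ± 0.42 (SE; adjusted p = 0.00105) for Ifi44 and 2.29 ± 0.47 (SE; adjusted p = 0.0113, limma) for Rsad2. In another fit, low values were raised: each value under 1.74, also one with signal, was set to 1.74. That is the highest value without signal in the microglia libraries. With low values raised, the differences fell to 1.23 for Ifi44 and to 1.00 for Rsad2, and the adjusted p of Rsad2 became 0.124 (limma).

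Usp18, the brake of the set, was at 3.70, 5.24, 3.08 and 0.28 in naive microglia, the last without signal, and at 5.43 to 6.10 with a median of 5.85 in EAE-vehicle microglia. Its difference was 2.73 ± 0.70 (SE; adjusted p = 0.0433, limma), and without naive replicate 4 it was 1.80 with an adjusted p of 0.0567. Over all fits that left out 1 library its adjusted p ran from 0.00738 to 0.0878, and it was 0.0937 with the 2 groups alone in the fit and 0.117 with library quality weights. Mx1 went the other way in that library: it was at 2.31, 2.73, 2.56 and 4.49 in naive microglia, and at 2.97 to 4.63 with a median of 4.23 in EAE-vehicle microglia. Naive replicate 4 was the only naive library within the EAE-vehicle range, and the difference was 1.04 ± 0.44 (SE; adjusted p = 0.294, limma). Without that replicate it was 1.53, with an adjusted p of 0.0328.

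For each of the 9 members whose groups did not overlap, a two-sided exact permutation test of the group means gave p = 0.00476, the smallest value that the 210 splits of 4 and 6 libraries allow. For Mx1 the exact p was 0.0905. Naive replicate 2 was the highest naive library for 8 of the 10 members, with a mean over members of 3.76 log2 units, and naive replicate 4 was the lowest for 7, with a mean of 1.34, 8710 genes with signal and signal for 3 members. With libraries under 10000 genes with signal left out, an alternative chosen after seeing the data, the counts were again 10 members called and 9 with an adjusted p under 0.05. Over the 10 members, levels in EAE-vehicle microglia were in the order Bst2, Ifit3, Oasl2, Ifit2, Isg15, Usp18, Ifit1, Mx1, Ifi44 and Rsad2. Bst2 was separated from Ifit3, and Oasl2 from Ifit2, while the ranges of the other neighbours in this order overlapped.

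In astrocytes the same comparison gave 8 called members, of which 4 rose, and 2 members that were not called. Isg15, Bst2, Ifit3 and Oasl2 passed the adjusted test, with differences of 4.88 to 6.20 log2 units. The median over the 10 members was 4.22, where the median over all 30718 genes tested was 0.03. The 8 called members stand against 2.69% of genes tested that were called higher, and the 4 members with an adjusted p under 0.05 against 0.342%. In 5 members every EAE-vehicle library lay above every naive library, as in 1.02% of genes tested.

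**Figure D2:**
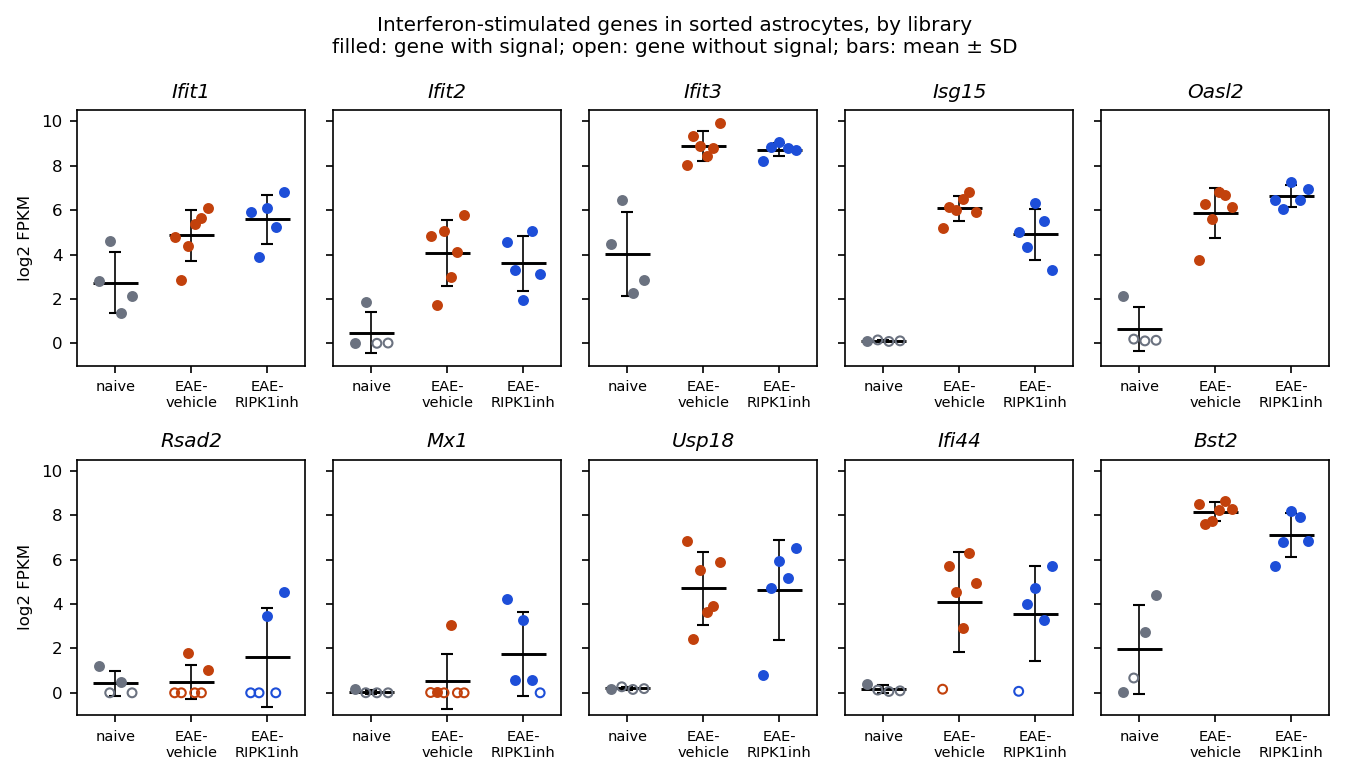
Levels of the 10 members in astrocytes, in log2 FPKM, for 4 naive, 6 EAE-vehicle and 5 EAE-RIPK1inh libraries, with 1 point per library, open points for genes without signal, and bars for mean ± SD. Isg15, Bst2, Ifit3, Oasl2 and Usp18 are apart from the naive libraries in EAE-vehicle mice, and Rsad2 and Mx1 lie near 0 in most libraries.

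Isg15, the ubiquitin-like modifier, was the member with the smallest standard error of its difference. In naive astrocytes it was at 0.09, 0.16, 0.09 and 0.12, with signal only in the first library, and in EAE-vehicle astrocytes it was at 5.19 to 6.81 with a median of 6.07. The difference was 5.98 ± 0.53 (SE; adjusted p = 3.07e-05, limma). It fell to 3.36 with low values raised, here to 2.74, the highest value without signal in the astrocyte libraries, where the adjusted p was 0.00197. Its size therefore depends on where low values are set, and its adjusted p was under 0.05 in both of these fits.

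Bst2 was at 0.02, 0.67, 2.75 and 4.41 in naive astrocytes, with no signal in the second library, and at 7.59 to 8.66 with a median of 8.26 in EAE-vehicle astrocytes. All 6 diseased libraries were over 3 log2 units above the highest naive one, and the difference was 6.20 ± 0.72 (SE; 73.6-fold; adjusted p = 0.000395, limma). Its naive values of 0.02 and 0.67 lay under 2.74, so the size of this difference also depends on where low values are set. Ifit3 was at 4.50, 6.46, 2.29 and 2.85 in naive astrocytes and at 8.04 to 9.92 with a median of 8.84 in EAE-vehicle astrocytes, with signal in every library. Its difference was 4.88 ± 0.63 (SE; 29.4-fold; adjusted p = 0.00114, limma). Oasl2 was at 2.15, 0.20, 0.12 and 0.14 in naive astrocytes, with signal only in the first, and at 3.77 to 6.83 with a median of 6.22 in EAE-vehicle astrocytes. Its difference was 5.24 ± 0.60 (SE; adjusted p = 0.000383, limma), or 3.15 with low values raised.

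The other 4 called members had larger spread. Usp18 was at 0.15 to 0.27 in naive astrocytes, with signal in 1 of 4 libraries, and at 2.42 to 6.85 in EAE-vehicle astrocytes, a difference of 4.51 ± 1.02 (SE; adjusted p = 0.0699, limma). Ifit2 differed by 3.60 ± 0.82 (SE; adjusted p = 0.0698) and Ifi44 by 3.93 ± 1.15 (SE; adjusted p = 0.221, limma). Ifi44 was without signal in EAE-vehicle replicate 1, the library with the fewest genes with signal, and at 2.92 to 6.30 in the other 5. With low values raised, the differences were 2.02 for Usp18, 1.51 for Ifit2 and 1.79 for Ifi44. Ifit1 was expressed in naive astrocytes, at 2.80, 4.59, 1.37 and 2.16, and at 2.87 to 6.12 with a median of 5.09 in EAE-vehicle astrocytes, and the difference was 2.14 ± 0.75 (SE; adjusted p = 0.399, limma).

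Rsad2 and Mx1 were not called. Rsad2 was at 1.21, 0.00, 0.51 and 0.00 in naive astrocytes and had signal in 2 of 6 EAE-vehicle libraries, at 1.79 and 1.04, a difference of 0.04 with a 95% confidence interval of -1.83 to 1.92. Mx1 was at 0.15 and lower in naive astrocytes and at 3.07 in EAE-vehicle replicate 4 against at most 0.05 in the other 5, a difference of 0.48 with an interval of -1.33 to 2.30. The intervals hold both no difference and a rise of more than 1.5-fold. For the 5 members whose groups did not overlap (Ifit3, Isg15, Oasl2, Usp18 and Bst2) the exact permutation p, two-sided, was 0.00476, the smallest that these group sizes allow. With libraries under 10000 genes with signal left out, again 8 members were called and 4 passed the adjusted test.

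Transcripts of other cell types moved with EAE in the astrocyte libraries. Of the 9 T cell markers, 9 were higher in EAE-vehicle than in naive astrocytes, 6 were called and 1 passed the adjusted test. Their mean level was 0.341 to 1.27 in naive and 1.298 to 5.77 in EAE-vehicle libraries. Lck, a kinase of T cells, had signal in none of the 4 naive and all 6 EAE-vehicle libraries. Of the 9 monocyte and neutrophil markers, 6 were called higher and 0 passed the adjusted test (limma), and their mean went from 0.0947 to 1.07 in naive to 1.84 to 4.89 in EAE-vehicle libraries. Of the 10 microglial markers, 2 were called higher in EAE-vehicle astrocytes and 1 passed the adjusted test, with means of 0.911 to 2.42 in naive and 1.70 to 3.97 in EAE-vehicle libraries. Oligodendrocyte markers had means of 6.19 to 7.39 in naive and 6.38 to 9.91 in EAE-vehicle astrocytes. All 7 of these markers were higher in EAE-vehicle astrocytes, 4 were called and 1 passed the adjusted test. Of the 8 astrocyte markers themselves, 4 were called lower and 2 of these passed the adjusted test, while 1 was called higher and passed it. In microglia the T cell list was at 0.187 to 0.409 in naive and 0.225 to 0.955 in EAE-vehicle libraries, with 0 of 9 markers called, and the monocyte and neutrophil list at 2.03 to 5.31 and 2.67 to 6.43, with 3 of 9 called higher. Plasmacytoid dendritic cells are known for making type I interferons. Their 5 measured markers had means of 1.70 to 2.01 in naive and 2.49 to 3.45 in EAE-vehicle microglia. Of the 5, 3 were higher in EAE-vehicle microglia, and 2, Cox6a2 and Pacsin1, passed the adjusted test higher. Differences of the 5 ranged from -0.67 to 4.23 log2 units with a median of 0.14, so the list did not rise as a whole. Of the 10 microglial markers 9 were called lower in EAE-vehicle microglia, 7 of them with an adjusted p under 0.05, and their mean was 10.26 to 10.54 in naive and 8.14 to 8.74 in EAE-vehicle microglia. The part of these cells and markers in the members' levels was not tested.

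Setting the cell types against each other, naive microglia held more of 4 members than naive astrocytes. Isg15, Oasl2, Mx1 and Bst2 had an adjusted p under 0.05 there, against 5.94% of 30952 genes tested that were higher in microglia. The widest gap was that of Bst2, at 6.83 ± 0.58 (SD, n = 4) in naive microglia and 1.96 ± 2.00 (SD, n = 4) in naive astrocytes, a difference of 4.87 ± 0.61 (SE; adjusted p = 6.56e-07, limma). With low values of both cell types raised to 2.74, the difference of Bst2 passed and those of Isg15 (0.28), Oasl2 (0.25) and Mx1 (0.44) did not. This also lifted values with signal: Oasl2 and Mx1 had signal in all 4 naive microglia libraries. In EAE-vehicle mice Bst2 was at 8.22 ± 0.11 (SD, n = 6) in microglia and 8.16 ± 0.42 (SD, n = 6) in astrocytes, a difference of 0.06 ± 0.50 (SE).

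In EAE-vehicle mice 2 members differed between the cell types in the adjusted test, Mx1 and Rsad2, both higher in microglia, against 7.89% of genes tested. Mx1 was at 4.06 ± 0.60 (SD, n = 6) in microglia and 0.52 ± 1.25 (SD, n = 6) in astrocytes, a difference of 3.54 ± 0.62 (SE; adjusted p = 0.000108, limma). Rsad2 differed by 2.27 ± 0.64 (SE; adjusted p = 0.0144, limma). With low values raised, Mx1 differed by 1.27 and Rsad2 by 0.25, the latter with an adjusted p of 0.517 (limma). Rsad2 had signal in all 6 of these microglia libraries, from 2.00 upward, and its values under 2.74 were lifted too. Ifit3 ran the other way: its EAE-vehicle astrocyte libraries, from 8.04 to 9.92, all lay above the microglia libraries, from 6.41 to 7.35, yet its difference of -1.92 ± 0.71 (SE; adjusted p = 0.0738, limma) missed the threshold in this fit. In EAE-RIPK1inh mice 1 member, Mx1, passed (adjusted p = 0.00199, limma), against 7.18% of genes tested. The design names 15 mice for the 30 libraries, and the labels do not tie a microglia library to an astrocyte library, so the fit treats all libraries as independent. With same-numbered libraries as a replicate block, 4 members passed in EAE-vehicle mice and 3 in EAE-RIPK1inh mice. Ifit2 and Ifit3 were then added in both groups, Ifit3 with an adjusted p of 0.00136 and 0.0012. The counts moved also to 5 members in EAE-vehicle and to 3 in EAE-RIPK1inh mice without the libraries under 10000 genes with signal.

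Whether EAE changed a member differently in the cell types was tested as an interaction in 1 fit of all 30 libraries. Of the 10 members 1 passed, Bst2, against 0.982% of genes tested. The rise of Bst2 was 4.82 ± 0.78 log2 units (SE) smaller in microglia than in astrocytes (log2 interaction -4.82; adjusted p = 0.00118, limma). The size of this interaction also depends on where low values of naive astrocytes are set. The rise of Isg15 was nominally smaller in microglia (-1.90 ± 0.74, SE; adjusted p = 0.332, limma). Without the libraries under 10000 genes with signal the interaction of Isg15 was -2.68 with an adjusted p of 0.0305. With low values raised it was -0.40 with an adjusted p of 0.768 (limma). That of Rsad2 was nominally larger in microglia, by 2.24 ± 1.01 (SE; adjusted p = 0.483, limma).

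The question of the study was what inhibition of RIPK1 changes, and for these members the groups were not told apart in microglia. Of 10 members 0 were called between EAE-RIPK1inh and EAE-vehicle microglia, where 1.76% of genes tested were called in either direction. The smallest adjusted p of the members was 0.930 (limma), and no member had an unadjusted limma p under 0.05. Of all 28958 genes tested, 1 had an adjusted p under 0.05 in this comparison (limma), so adjusted p values separate few genes here. Of the members 2 were higher and 8 lower with inhibitor, between -0.62 for Ifit1 and 0.72 for Mx1, with a median of -0.20 log2 units.

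**Figure D3:**
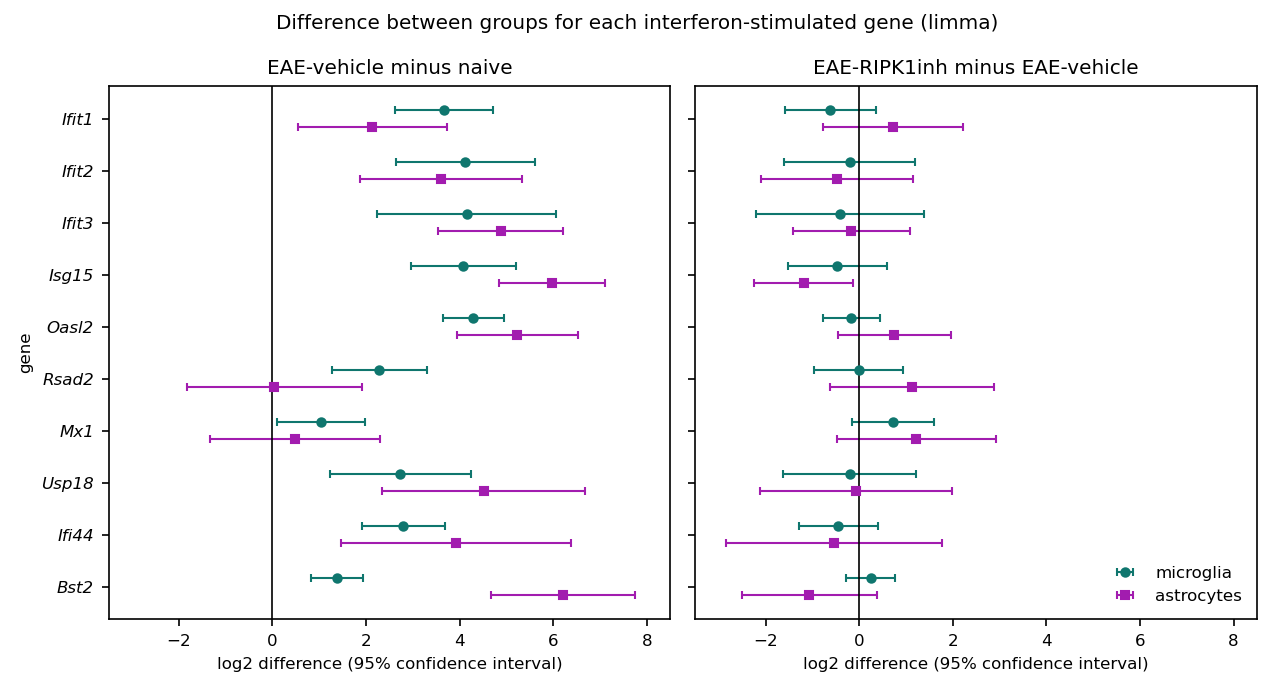
Difference in log2 units for each member, EAE-vehicle minus naive on the left and EAE-RIPK1inh minus EAE-vehicle on the right, in microglia (circles) and astrocytes (squares), with 95% confidence intervals from limma. Most differences on the left lie between 1.04 and 6.20, and on the right the interval of every member but astrocyte Isg15 holds 0.

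Ifit1 was at 5.14, 4.61, 4.50, 4.04 and 4.08 in EAE-RIPK1inh microglia, against 4.56 to 5.77 in EAE-vehicle microglia, a difference of -0.62 with a 95% confidence interval of -1.59 to 0.36. Isg15 was at 5.80, 4.92, 5.90, 5.43 and 5.51, against 5.62 to 6.38, a difference of -0.47 with an interval of -1.52 to 0.59. In both genes some inhibitor libraries were below all vehicle libraries and others were within their range. The exact permutation p, two-sided, was 0.0455 for Ifit1 and 0.0584 for Isg15, unadjusted, where 462 splits allow 0.00216 at the least. Mx1 was at 5.37, 4.04, 5.25, 4.62 and 4.63, against 2.97 to 4.63, a difference of 0.72 with an interval of -0.16 to 1.61 and an exact p of 0.0758.

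The tightest intervals were those of Bst2, at -0.28 to 0.77, and Oasl2, at -0.77 to 0.44. The widest were those of Ifit3, at -2.20 to 1.39, Usp18, at -1.62 to 1.21, and Ifit2, at -1.60 to 1.20. In EAE-RIPK1inh replicate 3 Ifit2 was at 3.96, Ifit3 at 5.80, Usp18 at 4.13 and Ifi44 at 1.02, each the lowest of its group. Isg15 was the highest of its group there, at 5.90, and Bst2, Mx1 and Rsad2 were above their group medians, at 8.87, 5.25 and 3.27. That library held T cell markers at a mean of 2.16 and monocyte and neutrophil markers at 6.52. The other 4 inhibitor libraries held at most 0.322 and 3.81. The part of those cells in the members' levels in replicate 3 was not tested. Without that library, the difference was 0.26 for Ifit2 and 0.16 for Usp18.

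In astrocytes 1 member, Isg15, was called between EAE-RIPK1inh and EAE-vehicle mice, where 3.02% of genes tested were called in either direction. Of all 30718 genes tested, 0 had an adjusted p under 0.05 here, and the smallest was 0.840 (limma). Isg15 itself did not stand apart by its adjusted p. It was at 5.03, 4.36, 6.31, 5.52 and 3.33 with inhibitor, against 5.19 to 6.81 with vehicle, and 3 of the 5 libraries were below every vehicle library. The difference was -1.19 with a 95% confidence interval of -2.25 to -0.13 (p = 0.0307, adjusted p = 0.840, limma; exact permutation p = 0.0455). The call was lost without EAE-vehicle replicate 4 or 5 or without EAE-RIPK1inh replicate 2 or 5, with genes filtered at a mean log2 value of 1 and with the replicate block, and the difference over all leave-one-out fits ranged from -1.54 to -0.79. Bst2 was at 5.72, 6.79, 8.20, 7.92 and 6.84, against 7.59 to 8.66, a difference of -1.07 with an interval of -2.51 to 0.37 (exact permutation p = 0.0368).

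All other astrocyte members had intervals wider than that of Isg15. Oasl2 was at 6.46, 6.05, 7.27, 6.45 and 6.97, against 3.77 to 6.83, a difference of 0.75 with an interval of -0.45 to 1.96. Ifit3 was at 8.24, 8.86, 9.08, 8.80 and 8.70, within the vehicle range, and its interval was -1.42 to 1.09. Ifi44 was without signal in 1 inhibitor library and at 3.29 to 5.69 in the other 4, with an interval of -2.85 to 1.77. Rsad2 reached 3.44 and 4.55 in replicates 3 and 5 and had no signal in the other 3, and Mx1 was at 4.23 and 3.29 in replicates 1 and 3 and at most 0.59 elsewhere. No interaction of inhibitor and cell type passed the adjusted test in limma, where the smallest adjusted p among members was 0.948 and none had an unadjusted p under 0.05. Over all genes tested, 0 interactions passed.

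Against naive mice, which are the same libraries as in the first comparison, EAE-RIPK1inh microglia had 10 members called (5.35% of genes tested were called higher), of which 8 had an adjusted p under 0.05 (1.81%). The exceptions were Mx1 (1.76 ± 0.46, SE; adjusted p = 0.0591, limma) and Usp18 (2.52 ± 0.73, SE; adjusted p = 0.0985, limma). With the 2 groups alone in the fit, 2 members had an adjusted p under 0.05 in microglia, Isg15 and Oasl2. EAE-RIPK1inh astrocytes had 8 members called (1.98%), of which 4 had an adjusted p under 0.05 (0.124%), namely Ifit3, Isg15, Oasl2 and Bst2, and with the 2 groups alone in the fit Isg15 and Oasl2 had one. With low values raised, the difference of Isg15 from naive astrocytes was 2.17 with an adjusted p of 0.111 (limma). Side by side, Oasl2 in astrocytes differed from naive by 5.24 in EAE-vehicle and by 5.99 in EAE-RIPK1inh mice, Isg15 by 5.98 and 4.79, and Bst2 by 6.20 and 5.13.

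The genes upstream of the members were examined as lists. Of 12 interferon ligands 5 were in the table. Ifnb1, which encodes interferon beta, was at most 1.01 in all 15 microglia libraries, with signal in 1 of 4 naive, 1 of 6 EAE-vehicle and 2 of 5 EAE-RIPK1inh libraries. In astrocytes it had signal in 1 EAE-vehicle library, at 2.00, and 1 EAE-RIPK1inh library, at 0.91. Of the ligands tested, 0 of 4 were called in microglia and 1 of 5 in astrocytes. The called one was Ifng, which encodes interferon gamma. It was listed at 0 in all 15 microglia libraries and all 4 naive astrocyte libraries, and was at 6.61, 2.16, 3.83, 5.35 and 4.92 in 5 of the 6 EAE-vehicle astrocyte libraries, a difference with an adjusted p of 0.315 (limma). With inhibitor it had signal in 2 of 5 astrocyte libraries, at 4.94 and 3.23. Those 2 libraries had the highest T cell marker means of the inhibitor group, 5.59 and 5.16, whereas the EAE-vehicle library without Ifng signal, replicate 3, had a T cell marker mean of 5.09.

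In EAE microglia 3 receptor chains fell, and the transcription factor genes Irf7 and Irf1 rose. Of 9 receptors and kinases, 3 fell in EAE-vehicle microglia: Ifngr1, a chain of the interferon gamma receptor, by 2.00 log2 units (adjusted p = 0.00179), Ifnar2, a chain of the type I receptor, by 1.09 (adjusted p = 0.0317), and Il10rb, shared by receptors of interferon lambda and interleukin 10, by 0.93 (adjusted p = 0.0362, limma). Ifnar1 differed by 0.03 ± 0.27 (SE). In astrocytes none of the 9 was called. With inhibitor, 2 of the 9 were called in microglia, where 1.76% of all genes tested were called in either direction. These were Ifnar2 and the kinase gene Tyk2, higher by 0.79 ± 0.25 and 0.88 ± 0.37 (SE), both with an adjusted p of 0.930 (limma). Among the transcription factors, Irf7, which sustains interferon production, rose by 2.90 log2 units in EAE-vehicle microglia and by 5.07 in astrocytes, and Irf1, a factor induced by interferons, rose by 2.38 and 4.38. Neither was called with inhibitor in either cell type.

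**Figure D4:**
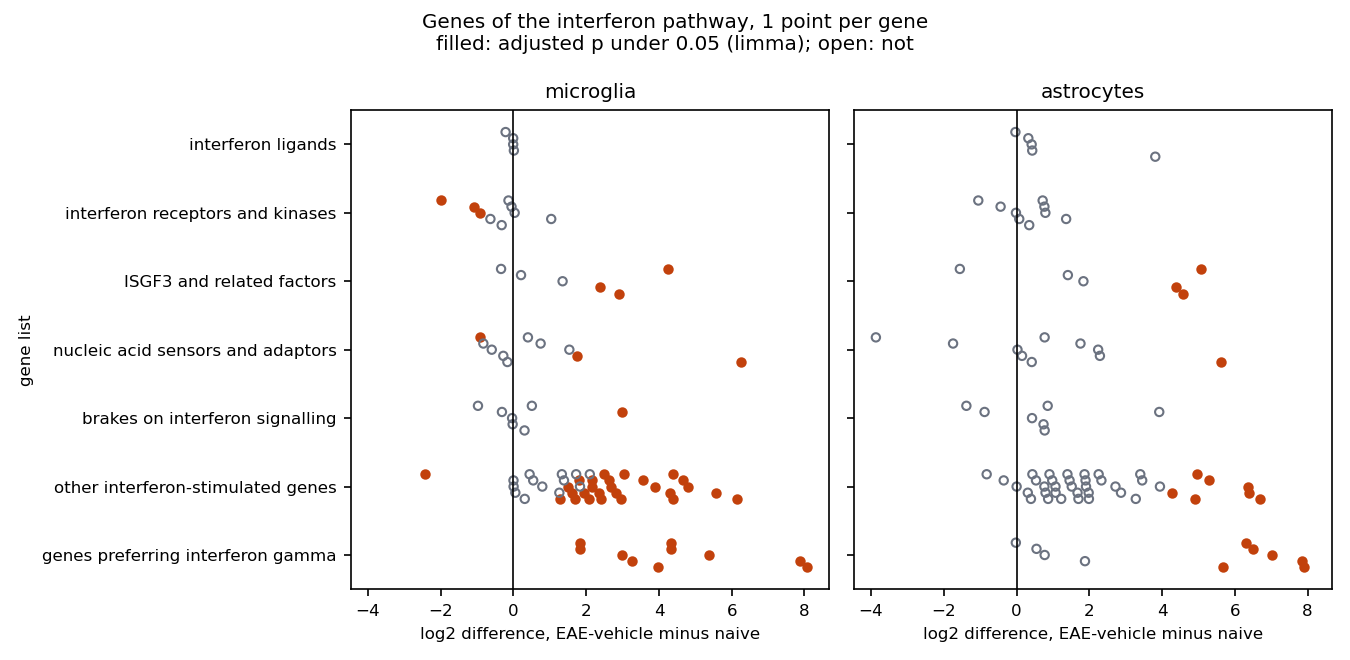
Difference between EAE-vehicle and naive mice in log2 units for each gene of 7 lists of the interferon pathway, 1 point per gene, in microglia and astrocytes, filled where the adjusted p of limma was under 0.05. The ligands stay near 0 in microglia, 3 receptor genes with filled points lie below 0 there, and the interferon-stimulated lists lie mostly above 0.

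Of 41 further interferon-stimulated genes 40 were in the table. Of these 40 32 were called higher and 1 lower in EAE-vehicle microglia, 26 of them higher with an adjusted p under 0.05, and the median was 2.09. The 1 called lower was Ifi27, by 2.43 log2 units (log2 difference -2.43; adjusted p = 0.00114, limma). In astrocytes 20 were called higher, 7 with an adjusted p under 0.05, and the median was 1.78. The largest of those called were Gm4951 (6.14 in microglia and 6.39 in astrocytes), Cxcl10, a chemokine for T cells (5.55 and 6.35), and Ifi27l2a (4.81 and 6.68). A further list of 10 genes was taken to prefer interferon gamma, which was not tested here. Of these, 10 passed the adjusted test in microglia and 6 in astrocytes, with medians of 4.14 and 5.99. Among them, Gbp2 rose by 8.07 and 7.91 and Iigp1 by 7.86 and 7.85 log2 units, both GTPases of cell-autonomous defence. The median of this list was above that of the 10 members in both cell types (3.23 and 4.22), a description without a test. With inhibitor, 1.76% of all genes tested in microglia and 3.02% in astrocytes were called in either direction. Of the 40, 1 was called in each cell type, Ifi27 in microglia (1.24, adjusted p = 0.930) and Oas1g in astrocytes (1.41, adjusted p = 0.840, limma). Of the 10, 0 were called in microglia and 3 in astrocytes: Gbp3 (-1.65) and Gbp2 (-1.01) lower and Ciita (1.48) higher, each with an adjusted p of 0.840 (limma).

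Among the 10 sensors and adaptors of nucleic acids tested, 3 were called higher and 2 lower in EAE-vehicle microglia and 3 higher and 1 lower in astrocytes. Zbp1, a sensor that can engage RIPK3, rose by 6.25 in microglia and 5.63 in astrocytes, and Ifih1, which encodes the RNA sensor MDA5, rose by 1.74 in microglia (adjusted p = 0.0254, limma). In astrocytes 1 of the 10 was called with inhibitor, against 3.02% of all genes tested called in either direction. It was Zbp1, lower by 2.37 ± 0.88 log2 units (log2 difference -2.37; SE; adjusted p = 0.840, limma). Of 7 brakes on interferon signalling, Socs1 rose in microglia, by 2.98 (adjusted p = 0.0154, limma), and none passed the adjusted test in astrocytes.

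Within groups the members did not all vary together. Each library was set against its group mean, and each member was correlated with the mean of the other 9 over the 15 libraries of a cell type. In microglia Pearson's r was 0.91 for Ifit3, 0.86 for Ifit2, 0.82 for Isg15 and for Usp18, 0.79 for Ifit1 and 0.73 for Oasl2. It was 0.40 for Rsad2, 0.26 for Ifi44, 0.16 for Bst2 and -0.45 for Mx1. In astrocytes r ran from -0.32 for Mx1 to 0.52 for Ifit1. The microglial values lean on the 4 naive libraries, which spread most and differ in genes with signal. Outside the members, the genes closest to the members' mean by the same measure included Rftn1, Tmx4, Tmx1 and Lsg1 in microglia (r = 0.90 to 0.88) and Slc33a1, Prrc2a, Tyrobp, Socs3 and Tbl3 in astrocytes (r = 0.88 to 0.87), among 9694 and 10406 genes. These are descriptions over libraries that share their depth and processing, and no test was made.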

How the data were processed

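RNA of sorted microglia and astrocytes was sequenced after oligo(dT) capture, SMART-seq2-like amplification and Tn5 fragmentation. The authors deposited 1 table of log2 FPKM values per gene, made with OmicSoft Array Studio 10.1.1.3 and quantile-normalized over all 30 libraries. The file keeps genes with an FPKM of at least 1, and the offset added before the logarithm, the aligner and the annotation release are not given in the sources used here. Since FPKM values of this kind hold no read counts, depth is unknown and counting intervals cannot be had. In each library the lowest values increase steadily down the table, and genes within that stretch were taken to be without signal.

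Groups were taken from the labels and compared in R 4.3.3 with limma 3.58.1 (lmFit, then eBayes with a trend), with 1 fit over the 3 groups of each cell type, or over all 30 libraries for comparisons between cell types. Each member was also tested by an exact permutation test, two-sided (scipy 1.17.1). The study's methods name a paired test, and the labels name no pairs, so the fits are unpaired. The fits were also run on simulated normal values, with 200 genes of each cell type shifted by 2 log2 units in the EAE-vehicle libraries. The simulation held no values without signal and no differences in depth, so it cannot show how these affect the fits. The members and gene lists were chosen with earlier results of these data known. All 10 members are named. Ligands, receptors, kinases and factors of the table could be named too, with the 3 largest called genes of each other list in a comparison and the 5 genes of most similar pattern. The fall of Ifi27 in EAE lies outside this rule and was named after its value was seen. Some genes that the rule admits are not reported here. The filter on low values, the offset, the raising of low values, centring and library weights were varied. So were the groups in a fit, robust eBayes, the replicate block and leaving out libraries. The mice behind the replicates of a group are separate animals according to the series' design.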

Additional observations from a re-analysis of the deposited data

Results flagged for a closer look

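In 6 of 60 groups of a member, 1 library stood apart from the rest by Dixon's test, which chance does in about 1 group of 20. In EAE-RIPK1inh microglia, replicate 3 was the lowest for Ifit2, at 3.96, and for Ifit3, at 5.80. In naive astrocytes, replicate 2 was the highest for Ifit2, at 1.89, and replicate 1 for Oasl2, at 2.15, and for Mx1, at 0.15, where the other libraries were near 0. In EAE-vehicle astrocytes, replicate 4 was the highest for Mx1, at 3.07. Naive astrocyte replicate 1 had the most genes with signal of all libraries, 22981, and naive astrocyte replicate 2 had 8815.

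The difference between EAE-vehicle and naive mice was not the same in the cell types for Bst2: the interaction, microglia minus astrocytes, was -4.82 log2 units (adjusted p = 0.00118, limma), and it was negative in every alternative fit that was run.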

How the results depend on the processing

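Depth is unknown, so a member without signal may be unsampled or silent, and the size of its difference depends on the value it was given. Of the values recomputed under other settings, 2926 kept their direction and their side of the threshold, 68 lost and 73 gained it, and 67 changed sign. The causes were not tested, except that fits with 2 groups or without a library hold fewer samples. Robust eBayes moved none of the counts of members by over 1.5 times.

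Between EAE-RIPK1inh and EAE-vehicle microglia, 0 members were called, against 2 with library quality weights (Ifit1 and Mx1), 1 with the 2 groups alone (Ifit1) and 1 with libraries of at least 10000 genes with signal (Mx1), and 0 to 1 when single libraries were left out (1 without naive replicate 4). All genes called there numbered 2730 with weights, against 511, and 365 to 953 when single libraries were left out. The sign turned for Ifit2 (0.0299) and Usp18 (0.0321) with weights. For Rsad2 it turned with 1 more added before the logarithm (0.008102), low values raised (0.0849), weights (0.37) and the replicate block (0.0474). When single libraries were left out Ifit2 ran from -0.36 to 0.26, Rsad2 from -0.24 to 0.36 and Usp18 from -0.38 to 0.16. In EAE-RIPK1inh against naive microglia, 2 members passed the adjusted test with the 2 groups alone, against 8.

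In astrocytes, EAE-vehicle against naive, 7 members passed the adjusted test with a mean filter of 1 and 8 with weights, against 4, and all genes called were 3698 with weights, against 2060. Rsad2 was -0.39 with the replicate block, -0.00491 with libraries of at least 10000 genes with signal and -0.22 to 0.30 when single libraries were left out, and Mx1 -0.0265 to 0.59. Between EAE-RIPK1inh and EAE-vehicle astrocytes, 1 member was called, against 0 with the mean filter and 0 with the replicate block. There were 2 with low values raised and 2 with the 2 groups alone (Isg15 and Bst2). When single libraries were left out there were 0 to 1, and without EAE-vehicle replicate 4 the one was Mx1, at 1.73. All genes called in this comparison were 514 with low values raised, against 927. The sign turned for Ifit3 with the replicate block (0.0343) and for Usp18 with 1 more added (0.000530), values raised (0.26), weights (0.40) and the block (0.16). When single libraries were left out Ifit3 ran from -0.34 to 0.0343, Usp18 from -0.54 to 0.88 and Ifi44 from -1.33 to 0.33. Against naive astrocytes, EAE-RIPK1inh gave 7 members with weights and 2 with the 2 groups alone, against 4, and 3152 genes called with weights, against 1421.

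Between cell types, 1 member passed in naive mice with low values raised, against 4. In EAE-vehicle mice 4 passed with the replicate block, 5 with values raised, 5 with libraries of at least 10000 genes with signal and 2 to 4 when single libraries were left out, against 2. In EAE-RIPK1inh mice 3 passed with the block, 4 with values raised, 3 with centred libraries, 3 with libraries of at least 10000 genes with signal and 1 to 3 when single libraries were left out, against 1. Signs turned for Ifit3 in naive mice (0.54 with libraries of at least 10000 genes with signal) and Rsad2 in EAE-RIPK1inh mice (-0.17 with values raised). When single libraries were left out, Rsad2 ran from -0.21 to 0.29 and Ifi44 from -0.10 to 0.0808 in naive mice, and Ifit1 from -0.17 to 0.47, Isg15 from -0.30 to 0.0285 and Bst2 from -0.0583 to 0.16 in EAE-vehicle mice. In the interaction of EAE and cell type, 2 members passed with libraries of at least 10000 genes with signal, against 1, with Ifit2 at -0.41, and with values raised Oasl2 was 0.82 and Usp18 0.0934. When single libraries were left out Ifit2 ran there from -0.0936 to 1.27 and Ifit3 from -1.65 to 0.38. In the interaction of inhibitor and cell type Mx1 was 0.37 with values raised, and when single libraries were left out Ifit2 ran from -0.13 to 0.74, Mx1 from -1.004 to 0.13, Usp18 from -1.09 to 0.34 and Ifi44 from -0.78 to 0.88.

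Samples of the same replicate number did not deviate together in every pair. The median correlation of their deviations was 0.03 between cell types, 0.07 between groups in microglia and 0.00785 in astrocytes. For samples of different number the medians were -0.00709, -0.0147 and -0.0128. Such correlations cannot tell whether the numbers pair the samples. With the replicate block, EAE-vehicle against naive gave 9 members called and 6 passing the adjusted test in microglia, against 10 and 9, and 7 and 4 in astrocytes, against 8 and 4.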
